A study of Homo sapiens with 3 samples.

Results

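CTNND1, ENAH, EXOC7, SLK, TJP1, NF2, OSBPL3, SCRIB, PLEKHA1 and MARK3 are genes of cell junctions, cell polarity and the exocyst whose exons are known to switch in epithelial-mesenchymal transition (EMT). All rows under these 10 symbols were taken from 2 deposited tables of exon-skipping events, with no choice among the rows by value. The 10 genes themselves were chosen with earlier results of these data known. The 10 genes, out of 11271 listed in either table, had 62 rows in the RS2 table and 69 in the RS3 table, which cover 64 distinct exons. The cells were BJ fibroblasts, a long-established human line from foreskin, on day 8 after viral expression of OSKM was induced. OSKM stands for OCT4, SOX2, KLF4 and MYC, the transcription factors that reprogram somatic cells towards pluripotency. One culture had received siRNA against SMAD3, one siRNA against SFRS11 (a splicing factor now named SRSF11) and one a non-targeting siRNA, with 1 library each and no replicate. All 3 thus carried OSKM, and uninduced fibroblasts were not analysed here.

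The tables compare a library coded RS2, and a library coded RS3, with the same library, called the comparator here. No label or header ties these codes to the siRNAs, so the codes are kept and no result is assigned to a knockdown. Every difference below is read as an inclusion level in RS2 or RS3 minus that in the comparator. This direction was taken from the order of the library codes and could not be checked. The inclusion level is the share of transcripts over a region that keep the exon, so a difference of -0.3 means that a 0.3 smaller share kept it. The depth behind the values is unknown. Of 10 fibroblast marker genes, 9 were listed in each table, against 6 of 10 epithelial markers in RS3 and 5 of 10 in RS2. Of 10 pluripotency markers, 4 were listed in RS3 and 2 in RS2. A listing shows only that an event was tested, not how much of the gene was expressed.

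Epithelial cells are held together by adherens and tight junctions and keep an apical and a basal side. In EMT these contacts are taken apart, and in reprogramming of fibroblasts the reverse transition occurs early. Both are accompanied by switches in alternative exons, which are set by RNA-binding proteins such as ESRP1, ESRP2, RBFOX2 and QKI. Such exons often lie in coding sequence and change a binding surface of the protein while the rest of it stays the same.

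Exons that the results turn on are given here 5′ to 3′ with the coordinates of the tables (hg19). Those of OSBPL3 and NF2 were called, those of MARK3 and PLEKHA1 lay on opposite sides of the comparator in RS3 and RS2, and that of SLK is the gene's single listed exon. Their bases are those of the GENCODE 29 transcripts, in which each exon was found by its gene, its length and its spacing to the other listed exons, or by gene and length alone for SLK. Capitals mark the last 3 bases of the exon, next to the 5′ splice site, except in NF2.
OSBPL3, 93 bases, chr7:24902819-24902911, minus strand: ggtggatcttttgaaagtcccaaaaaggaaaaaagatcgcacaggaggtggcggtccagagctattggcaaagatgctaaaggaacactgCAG
MARK3, 45 bases, chr14:103966493-103966537, plus strand: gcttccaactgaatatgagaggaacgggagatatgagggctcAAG
PLEKHA1, 41 bases, chr10:124187792-124187832, plus strand: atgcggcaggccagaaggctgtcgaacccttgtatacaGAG
SLK, 93 bases, chr10:105770574-105770666, plus strand: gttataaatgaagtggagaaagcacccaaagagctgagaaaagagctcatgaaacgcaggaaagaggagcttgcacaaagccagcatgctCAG

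For NF2, 2 forms of 1 exon were listed, with the same start. In the shorter form the capitals mark the stop codon, which follows 33 coding bases. In the longer form they mark the 15 bases it has beyond the shorter one. These begin with GTAGGT, which is intron where the shorter form is used.
NF2, 45 bases, chr22:30079009-30079053, plus strand: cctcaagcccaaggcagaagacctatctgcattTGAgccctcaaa
NF2, 60 bases, chr22:30079009-30079068, plus strand: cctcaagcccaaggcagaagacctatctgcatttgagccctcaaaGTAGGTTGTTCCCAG

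Inclusion fell in RS3 for an exon of OSBPL3 and for both forms of the NF2 exon, and no other row of the 10 genes was called in either table. The rule for a call was an FDR of the authors under 0.05 together with a difference of at least 0.1 in size. In RS3 this gave 3 of 69 rows (4.35%), where 0.967% of all 42518 rows were called. All 3 had lower inclusion, a direction in which 0.736% of all rows were called. By gene the count was 2 of 10, against 3.05% of all listed genes. The 10 genes had more rows per gene in RS3, 69 for 10 genes against 42518 for 10723. A gene with more rows has more chances of a call. The 10 genes were chosen with earlier results of these data known, so these shares are a description and were not tested. The 2 called NF2 rows overlap and share reads, so they are not separate observations. These p-values compare 2 libraries and not 2 conditions.

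In RS2, 0 of 62 rows were called by the authors' FDR, and 0 when the p-values were adjusted anew by the Benjamini-Hochberg method. The background there was low too, with 0.0712% of all 40702 rows called. At an unadjusted p-value under 0.05 there were 6 member rows in RS2 (9.68%, against 4.52% of all rows), of which 4 belonged to EXOC7. The same limit held for 11 member rows in RS3 (15.9%, against 7.61%), of which 9 had lower inclusion and 2, both of ENAH, had higher inclusion.

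Most rows of the 10 genes were close to the comparator. The median difference over them was -0.013 in RS3, where that of all rows was -0.001, and 0 in RS2, as for all rows. Negative differences made up 65.2% of the member rows in RS3, against 51.1% of all rows there, and 48.4% in RS2, against 45.9%. Differences of at least 0.1 in size made up 14.5% of member rows in RS3 (all rows 21.2%) and 9.68% in RS2 (all rows 19.2%). These are 10 of 69 and 6 of 62 rows, some of them repeat rows or overlapping forms of 1 exon, and none of the shares was tested against that of all rows.

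**Figure D1:**
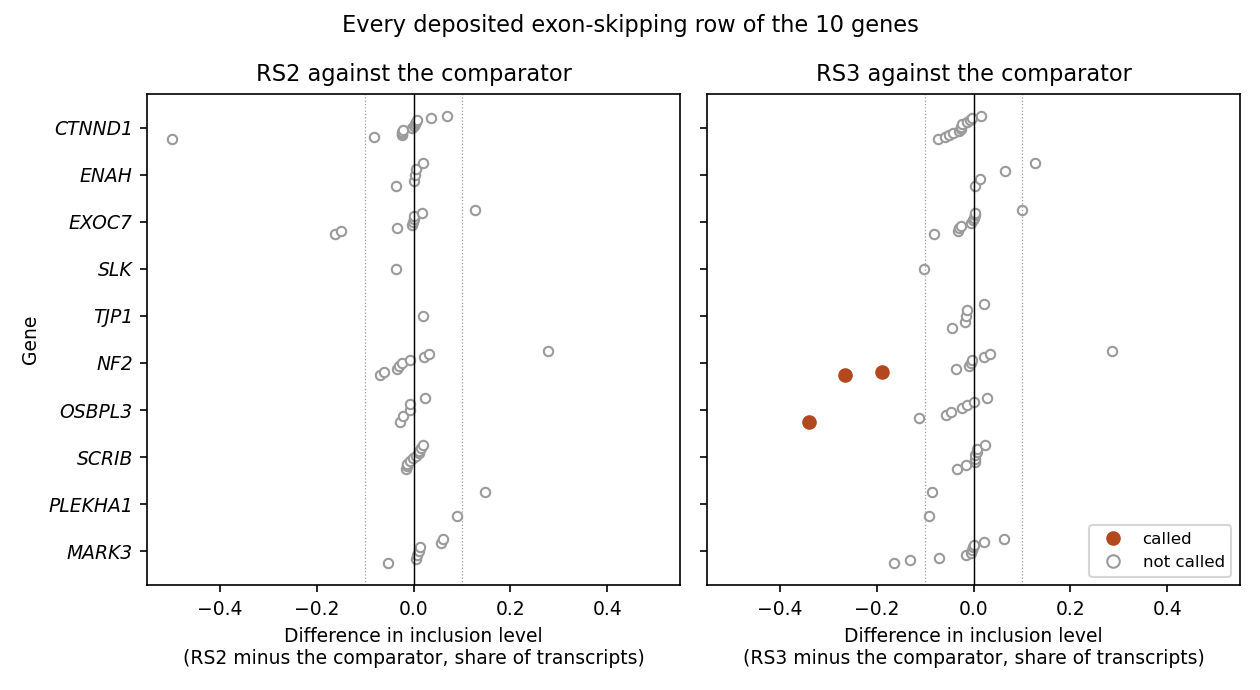
Each point is 1 deposited row of 1 gene, with the difference in inclusion level (share of transcripts) on the x axis, RS2 minus the comparator in the left panel and RS3 minus the comparator in the right panel. Filled points are called rows, and dotted lines mark differences of -0.1 and 0.1. The 3 filled points, of NF2 and OSBPL3, lie in the right panel between -0.339 and -0.190, and the point at -0.500 in the left panel is an uncalled CTNND1 row.

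OSBPL3 (ENSG00000070882) encodes an oxysterol-binding protein-related protein, which binds lipids at membrane contacts and acts on cell adhesion through R-Ras. Its exon of 93 bases differed by -0.339 in RS3 per the authors' deposited table, with a p-value and an FDR both listed as 0. In RS2 the authors' deposited table gave -0.021 for it, at an FDR of 1. The exon had the largest difference of the 8 listed OSBPL3 exons in RS3, and it stood in 1 row in each table. It lies wholly in coding sequence in GENCODE 29, where 2 coding transcripts have it and 2 skip it.

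The neighbouring exons had smaller differences, and none was called. The 124-base exon upstream had -0.046 in RS3 (FDR 0.337) and -0.007 in RS2 (FDR 1) per the authors' deposited table. The 157-base exon downstream was listed in RS3 only, at -0.023 (FDR 1) per the authors' deposited table. A 168-base exon at -0.113 had an FDR of 1 in RS3 per the authors' deposited table, so a difference of this size alone did not lead to a call. The 108-base exon, the other OSBPL3 exon that 2 coding transcripts skip, had 0 in RS3 and -0.028 in RS2 per the authors' deposited table, both at an FDR of 1. Exons of 127, 145 and 245 bases lay between -0.056 and 0.027 in RS3 per the authors' deposited table.

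NF2 (ENSG00000186575) encodes merlin, a tumor suppressor that links cortical actin to the membrane at junctions and acts upstream of the Hippo pathway. The 45-base form of its exon differed by -0.266 in RS3 per the authors' deposited table, at an FDR of 0.000189. The 60-base form differed by -0.190 in RS3 per the authors' deposited table, at an FDR of 0.00764. In RS2 the 45-base form had -0.034 and the 60-base form -0.070 per the authors' deposited table, at an FDR of 1 each. Inclusion of the exon thus fell in RS3 in both forms, while no change was called in RS2.

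The length of this exon is a multiple of 3, yet it does not insert residues into an otherwise equal protein. As the stop codon printed above shows, transcripts with the exon end their reading frame in it, and those without it read on into the last exon. This is the known choice between the merlin isoforms with different C-terminal ends. In GENCODE 29, 6 coding transcripts have the 45-base form, 1 has the 60-base form and 2 coding transcripts skip the exon.

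The rest of NF2 had no called row. The largest uncalled value was that of a 123-base coding exon at 30035079 to 30035201 on chromosome 22, with 2 rows in each table. Its rows were 0.287 (FDR 0.744) and -0.037 (FDR 1) in RS3 per the authors' deposited table. In RS2 they were 0.277 and -0.031, each at an FDR of 1, per the authors' deposited table. The 2 rows of the exon thus had opposite signs in each table, and RS2 and RS3 were nearly equal, with the comparator common to both. The 163-base exon just upstream of the called one was listed in RS2 only, at -0.062 (p-value 0.0346, FDR 1) per the authors' deposited table. Exons of 126 and 75 bases lay between -0.024 and 0.034 over both tables. The exons of 76 bases, of 36 bases and a second one of 123 bases, each listed in a single table, lay between -0.007 and -0.004.

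CTNND1 (ENSG00000198561) encodes p120-catenin, which binds the cytoplasmic tail of cadherins and keeps them at the cell surface. Its exon of 72 bases (chromosome 11, 57561482 to 57561553) was the only other member exon with an FDR under 0.05, so that 4 of the 69 member rows in RS3 passed this limit at any size (1.64% of all rows) and 0 of 62 in RS2 (0.165% of all rows). It had 4 rows in RS3, at -0.073 (FDR 0.0011), -0.059 (FDR 0.166), -0.007 (FDR 1) and -0.004 (FDR 1) per the authors' deposited table. In RS2 its 3 rows were 0.004, 0 and -0.003, each at an FDR of 1, per the authors' deposited table. All 4 rows were thus negative in RS3, but the differences were under 0.1 and the exon was not called. The tables do not list flanking exons, so the rows of 1 exon cannot be told apart or paired between the tables.

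The alternative exons of p120-catenin known as A, B and C were not called in either table. The C exon of 18 bases had -0.051 in RS3 (FDR 0.437) and 0.002 in RS2 (FDR 1) per the authors' deposited table. The A exon of 63 bases had -0.013 in RS3 and -0.025 in RS2, and the B exon of 87 bases, listed in RS2 only, had 0.006, per the authors' deposited table. Exons near the 5′ end, which decide from which start codon p120-catenin is read, were listed in several forms. The forms of 289, 182 and 180 bases, which end at the same base, lay between -0.025 and -0.022 in both tables.

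The noncoding 119-base exon before them had the widest spread of all member exons. Its 4 rows in RS2 ran from -0.500 (p-value 0.643) to 0.069 per the authors' deposited table, and its 2 rows in RS3 were -0.043 and 0.015. The row at -0.500 had the largest difference in size of all member rows, and it was far from the threshold of a call. Per the authors' deposited table the 88-base exon, listed in RS3 only, had -0.030 at an FDR of 1.

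ENAH (ENSG00000154380) encodes Mena, an Ena/VASP protein that lengthens actin filaments at junctions and at the leading edge. All 4 of its rows in RS3 lay above the comparator, though none was called. The 111-base coding exon (chromosome 1, 225704898 to 225705008) had 0.065 in RS3 (FDR 0.0898) and 0 in RS2 (FDR 1) per the authors' deposited table. A longer form of 795 bases with the same start coordinate had 0.126 in RS3 (FDR 0.597) and 0.004 in RS2 (FDR 1) per the authors' deposited table. These forms overlap, so their agreement in sign is not independent.

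The 57-base ENAH exon (chromosome 1, 225723209 to 225723265) has the length of the insert of the invasive Mena isoform, and it is coding in 1 GENCODE 29 transcript and skipped by 4 coding ones. It is shown because it is the only listed ENAH exon that a coding transcript skips. Whether it is the ENAH exon that switches in EMT was not examined, so its values are not a reading of that switch.
ENAH, 57 bases, chr1:225723209-225723265, minus strand: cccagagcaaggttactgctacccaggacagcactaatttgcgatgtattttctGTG
This exon had 0.013 in RS3 and 0.019 in RS2 per the authors' deposited table, at an FDR of 1 each. Exons of 305 bases (0.004 in RS3 and 0.003 in RS2) and of 58 bases (RS2 only, -0.036) had an FDR of 1 per the authors' deposited table. ENAH differences thus ran from 0.004 to 0.126 in RS3 and from -0.036 to 0.019 in RS2.

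EXOC7 (ENSG00000182473) encodes EXO70, the exocyst subunit that binds the plasma membrane where secretory vesicles dock. It held 4 of the 6 RS2 rows and 2 of the 11 RS3 rows at an unadjusted p-value under 0.05, and none had an FDR under 0.05. The differences lay in 2 neighbouring coding exons. The 69-base exon (chromosome 17, 74086410 to 74086478) had -0.034 (FDR 0.17) and -0.150 (FDR 0.806) in its 2 rows of RS2 per the authors' deposited table. In RS3 the authors' deposited table gave -0.033 (FDR 0.0655) and -0.082 (FDR 1). A longer form of 153 bases with the same start coordinate had -0.030 in RS3 (FDR 1) and -0.162 in RS2 (FDR 0.399) per the authors' deposited table. All 6 rows of these overlapping forms were below the comparator.

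The neighbouring 93-base EXOC7 exon (chromosome 17, 74087224 to 74087316) lies upstream on the minus strand. It had 0.127 (FDR 0.278) and 0.018 (FDR 1) in RS2 per the authors' deposited table. In RS3 its rows were -0.026 (FDR 0.53) and 0.101 (FDR 0.703) per the authors' deposited table. This exon was thus above the comparator in 3 of its 4 rows, where the 69-base exon was below it in all 4 of its own. The other 5 EXOC7 exons, of 66, 63, 168, 223 and 106 bases, lay between -0.005 and 0.004 in both tables.

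MARK3 (ENSG00000075413) encodes a kinase of the PAR-1 family, which sets polarity by phosphorylating microtubule-associated and polarity proteins. Its 45-base exon had -0.165 (FDR 0.787) and -0.131 (FDR 0.895) in the 2 rows of RS3 per the authors' deposited table. In RS2 the rows were 0.056 and 0.013, each at an FDR of 1, per the authors' deposited table. The exon was thus below the comparator in both RS3 rows and above it in both RS2 rows. It is coding, present in 5 and skipped by 5 coding GENCODE 29 transcripts.

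The 27-base MARK3 exon next to it, which 4 coding transcripts have and 6 skip, had 0.022 and -0.002 in RS3 and 0.012 and 0.007 in RS2 per the authors' deposited table. The 120-base exon had the smallest MARK3 p-value in each table, 0.0538 in RS3 and 0.0504 in RS2, with differences of 0.062 and 0.060 per the authors' deposited table. A 192-base exon had -0.072 in RS3 and -0.052 in RS2 per the authors' deposited table, at an FDR of 1 each. For both of these exons RS3 and RS2 lay on the same side of the comparator at nearly the same distance. Per the authors' deposited table the other 4 MARK3 exons lay between -0.015 and 0.004.

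PLEKHA1 (ENSG00000107679) encodes TAPP1, an adaptor whose pleckstrin homology domain binds the lipid PI(3,4)P2 at the membrane. Its listed exon had 2 forms with the same start, of 41 and 145 bases. The 41-base form had -0.085 in RS3 (FDR 0.851) and 0.089 in RS2 (FDR 1) per the authors' deposited table. For the 145-base form the authors' deposited table gave -0.093 in RS3 (FDR 0.817) and 0.147 in RS2 (p-value 0.0365, FDR 1). RS3 was thus below and RS2 above the comparator in both forms, which overlap and share reads. Each form is in 1 coding GENCODE 29 transcript, 3 coding transcripts skip the exon, and neither length is a multiple of 3. Only 102 bases of the 145-base form are coding there, so the frame cannot be read from its length.

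SLK (ENSG00000065613) encodes a Ste20-like kinase that acts on the cytoskeleton and on ezrin-family proteins. Its 1 listed exon, of 93 coding bases, had -0.102 in RS3 and -0.036 in RS2 per the authors' deposited table, at an FDR of 1 each. Both values were below 0, but neither was near the threshold of a call. In GENCODE 29 the exon is in 1 coding transcript and skipped by 1.

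TJP1 (ENSG00000104067) encodes ZO-1, the scaffold that ties tight junction proteins to actin. Its 240-base exon (chromosome 15, 30011981 to 30012220) matches the alternative exon that encodes the alpha domain, which 2 coding transcripts have and 3 skip. The exon had 0.022 in RS3 (FDR 0.827) and 0.019 in RS2 (FDR 1) per the authors' deposited table. The other 4 TJP1 exons were listed in RS3 only, between -0.045 and -0.013 per the authors' deposited table. The alpha exon of ZO-1 was thus close to the comparator in both libraries.

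SCRIB (ENSG00000180900) encodes Scribble, a scaffold of the basolateral polarity complex. Its 9 listed exons, the most of any member together with CTNND1 and NF2, had the narrowest range among the members with more than 2 rows in each table. Differences ran from -0.035 to 0.024 over 8 rows in RS3 and from -0.016 to 0.020 over 10 rows in RS2 per the authors' deposited table. The 63-base exon (chromosome 8, 144889722 to 144889784), the one SCRIB exon that a coding transcript skips, had -0.035 in RS3 (FDR 0.838) and -0.013 in RS2 (FDR 1) per the authors' deposited table. The 160-base exon, that of smallest p-value in RS2, had 0.011 there and 0.004 in RS3 per the authors' deposited table.

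The exons listed in both tables were then set side by side. Of 64 member exons, 45 were in both tables, 14 in RS3 only and 5 in RS2 only. Members thus had 59 exons in RS3 and 50 in RS2. Over all genes, 34977 exons were listed in RS3, 33745 in RS2 and 39434 in either. By the row of smallest p-value, 12 of the 45 had opposite signs in RS3 and RS2. By the same row, 18 of the 45 had a difference of at least 0.05 in either table. Neither of these counts was made over all exons, so they describe the 10 genes only. The 69-base EXOC7 exon, whose other rows had -0.082 in RS3 and -0.150 in RS2 per the authors' deposited table, is not among the 18. Both tables use the comparator, so values on the same side of it are not independent. RS3 and RS2 were not tested against each other, since no read counts were used.

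**Figure D2:**
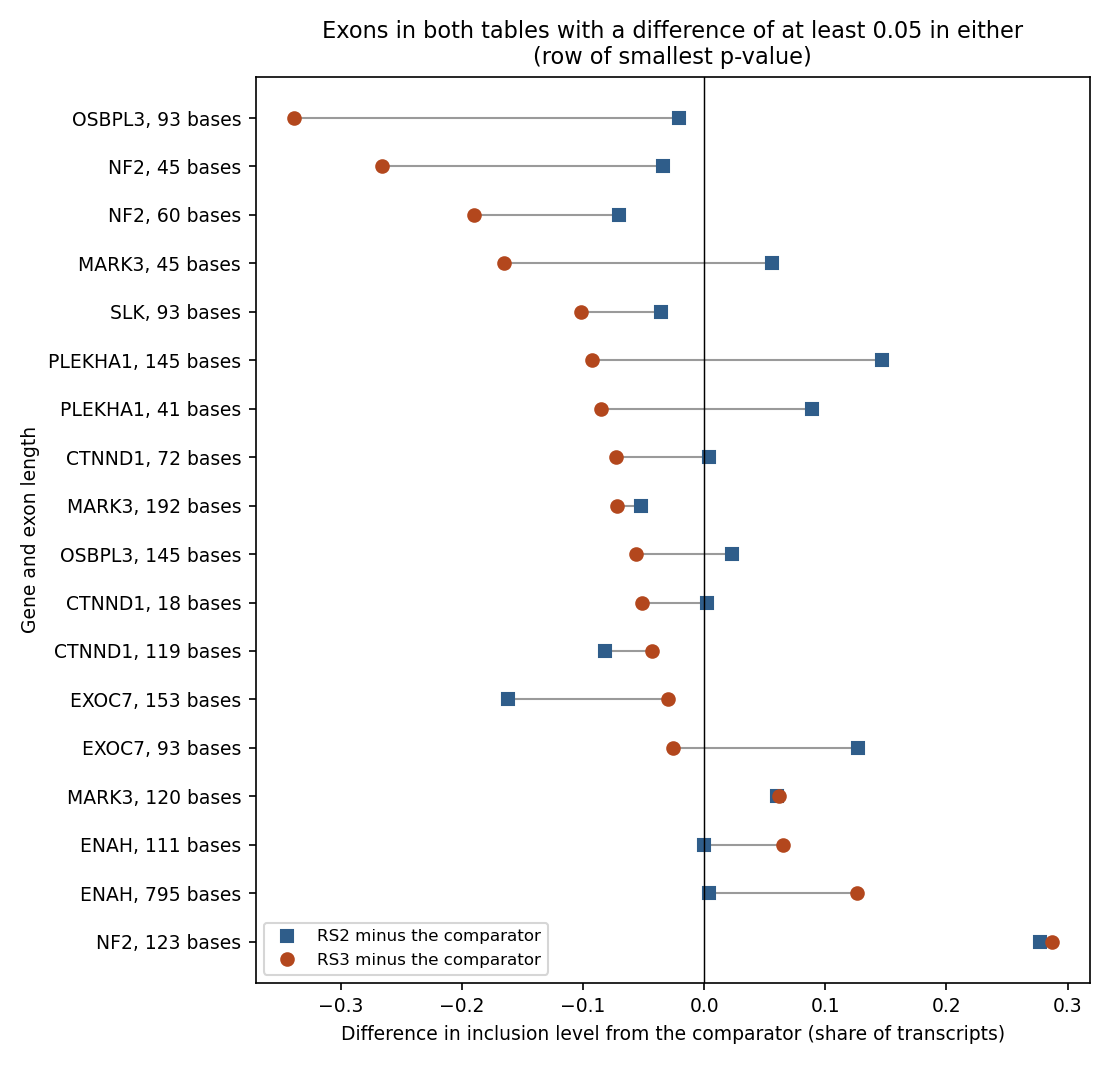
Each line is 1 of the 18 exons listed in both tables with a difference of at least 0.05 in either by the row of smallest p-value, named by gene and length. Squares show RS2 minus the comparator and circles RS3 minus the comparator (share of transcripts). The OSBPL3 exon and the 45-base NF2 form have circles at -0.339 and -0.266 and squares at -0.021 and -0.034, while the circles and squares of MARK3 (45 bases) and PLEKHA1 lie on opposite sides of 0.

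All 64 exons were found in GENCODE 29 by gene, length and spacing, except that of SLK, found by gene and length alone, and 53 were wholly coding in the coding transcripts that have them. For 33 of them at least 1 coding transcript skips the exon, and for 31 none does. The 3 called rows belong to exons among the 33, and 2 of these rows are overlapping forms of 1 NF2 exon. In this group 8 of 40 rows had a difference of at least 0.1 in size in RS3 and 6 of 40 in RS2. Among the 31 others it was 2 of 29 rows in RS3 and 0 of 22 in RS2. The median size of the difference was 0.028 in RS3 and 0.0245 in RS2 for exons with annotated skipping, and 0.015 in RS3 and 0.007 in RS2 for those without.

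**Figure D3:**
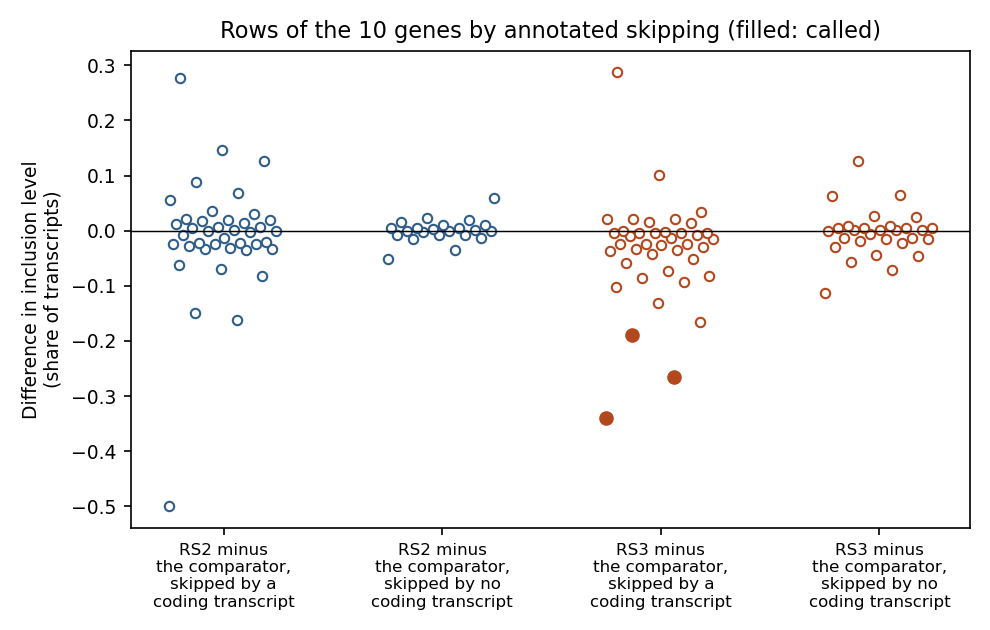
Each point is 1 deposited row of the 10 genes, with its difference in inclusion level from the comparator (share of transcripts) on the y axis, by table and by whether any coding GENCODE 29 transcript skips the exon. Filled points are the 3 called rows. Rows of exons with annotated skipping spread from -0.339 to 0.287 in RS3 and from -0.500 to 0.277 in RS2, and the others from -0.113 to 0.126 in RS3 and from -0.052 to 0.060 in RS2.

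The exons of the 10 genes more often had a length that is a multiple of 3. Such a length can keep the reading frame only where an exon is wholly coding, which held for 53 of the 64. A multiple of 3 was found for 42 of 64 exons (65.6%), against 41.1% of the 39434 exons in either table. Their median length was 115 bases, against 120 bases over all exons. Overlapping forms of 1 exon are counted apart here, and the shares were not tested. The kind of exon was looked up for the 10 genes only, so the 39434 exons were not limited to coding ones. The 10 genes were also chosen for known exon switches, so the shares come from unlike sets. All 3 called rows have such lengths, although in NF2 the exon ends the frame.

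Other genes of the same structures were counted in the same way. Over 6 lists of adherens junction, tight junction, polarity, exocyst, merlin and Hippo genes and of paralogues of the 10, 4 of 93 listed genes (4.30%) had a called row in RS3, all 4 with lower inclusion. In RS2 it was 0 of 92. Over all genes 3.05% had a called row in RS3 and 0.238% in RS2. The lists were chosen with earlier results of these data known, and none of these shares was tested.

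The tight junction list had 2 of 17 genes called in RS3. A 204-base exon of MAGI1, a scaffold of junctions, had -0.168 in RS3 (FDR 0.0471) and -0.106 in RS2 (FDR 0.964) per the authors' deposited table. ARHGEF11, which binds ZO-1, had a 96-base exon at -0.116 in RS3 (FDR 0.0316) and -0.043 in RS2 (FDR 1) per the authors' deposited table. MAGI1 and ARHGEF11 were thus below the comparator in both tables, and called in RS3.

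The polarity list and the merlin, ERM and Hippo list each had 1 of 17 genes called in RS3. MARK2, a kinase of the same family as MARK3, had a 162-base exon at -0.176 in RS3 (FDR 0.000266) per the authors' deposited table. Its 2 rows in RS2 were -0.102 (FDR 0.674) and -0.090 (FDR 0.998) per the authors' deposited table. YAP1, the transcriptional coactivator that merlin signalling restrains, had a 114-base exon at -0.116 in RS3 (FDR 0.000994) and 0.008 in RS2 (FDR 1) per the authors' deposited table.

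No gene was called in the adherens and desmosome list (15 listed genes in RS3 and 16 in RS2), the exocyst list (9 in each table) or the list of paralogues (18 in RS3 and 17 in RS2). At an unadjusted p-value under 0.05 these lists had 5 of 66, 3 of 26 and 3 of 81 rows in RS3, where the share of all rows was 7.61%. In RS2 they had 3 of 64, 3 of 27 and 1 of 80 rows, where the share of all rows was 4.52%. The other exocyst subunits thus had no called exon, like EXOC7 itself.

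**Figure D4:**
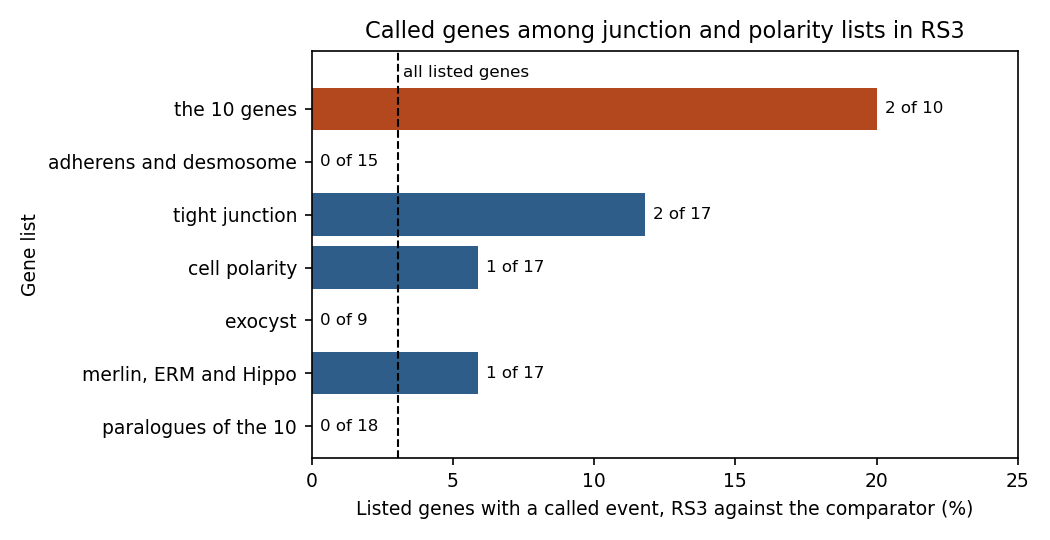
Bars give the percentage of listed genes with a called row in RS3 against the comparator for the 10 genes and 6 lists of related genes, with the counts beside them. The dashed line is the share over all listed genes, 3.05%. The number of rows per gene, which is higher in the 10 genes than over all listed genes, was not matched. The bar of the 10 genes stands at 2 of 10, that of the tight junction list at 2 of 17, and 3 lists are at 0.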

How the data were processed

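The 3 libraries were made from day 8 cells, 1 per siRNA. Per the submitters' processing notes, reads were handled with FastQC and STAR and the build was hg19. The sources used here do not name the splicing caller. For each of 2 comparisons the authors deposited the difference in inclusion level per exon-skipping row, with its p-value and FDR. The 4 columns of inclusion level per library were not used, since no label ties them to a sample. The sign was read from the order of the library codes, first minus second. In the top rows, seen once, the deposited difference was the first level minus the second. This cannot show which library the first level belongs to, so all directions here rest on the order of the codes.

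Rows were called at an FDR under 0.05 if the difference reached 0.1, a rule taken from earlier work on these data. Exons were matched between tables on gene, strand, start and end; an exon in several rows is given by all rows or by the row of smallest p-value. The 10 genes, the 6 lists (together 119 genes) and the exons shown were chosen with earlier results of these data known. Named were all 10 genes with every called row, or else the exon of smallest p-value per table, and up to 5 called genes per list; other exons were named after their values were seen.

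GENCODE 29 is annotated on GRCh38, so no coordinate of it is given. Within each gene, exons of equal length were paired, and the spacing shared by most pairs placed all 64 exons (for SLK, with 1 exon, the length alone); bases were cut from the transcript by exon order. Software was Python 3.11.15, pandas 2.3.3 and matplotlib 3.10.9. The adjustment was tested on simulated p-values. Depth is not known, so no interval is given. With 1 library per group, no sample could be left out.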

Additional observations from a re-analysis of the deposited data

Results flagged for a closer look

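In 3 listed exons of the 10 genes every row of RS3 lay on one side of the comparator and every row of RS2 on the other, by at least 0.05 each in the row of smallest p-value. The 45-base MARK3 exon had -0.165 in RS3 and 0.056 in RS2 in the authors' deposited table. The 41-base PLEKHA1 form had -0.085 in RS3 and 0.089 in RS2, and the 145-base form had -0.093 in RS3 and 0.147 in RS2, in the authors' deposited table. None of these values was called against the comparator, and the difference between RS3 and RS2 was not tested. The PLEKHA1 forms overlap and count as 1 observation.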

How the results depend on the processing

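The count of called member rows in RS3 was 2 to 4 over the 7 other rules of calling, and that of called genes 2 or 3. With a minimum difference of 0.2, at an FDR under 0.05 or under 0.01, the OSBPL3 row and the 45-base NF2 row were left. With a minimum of 0.05, or none, the 72-base CTNND1 exon was added. In RS2 the count was 0 under all 7 rules. Over all rows of RS3 the same rules gave between 123 and 699 calls. The 3 called exons stand in 1 row each, so the choice of row does not touch them. Among uncalled exons it moved the 119-base CTNND1 exon in RS2 most, from -0.082 by smallest p-value to -0.500 in the row of largest size, per the authors' deposited table. The share of exons with a length that is a multiple of 3 was 70.2% over rows and 66.7% over exons in a single row. No paired analysis was possible because each group has 1 library.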
